A study of Arabidopsis thaliana with 4 samples.

Results

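Expansins are small secreted proteins of the plant cell wall that loosen the network of cellulose and matrix polysaccharides without cutting it, which lets a turgid cell enlarge. They act best in an acidified wall. The family has alpha-expansins (EXPA), beta-expansins (EXPB) and 2 groups of expansin-like proteins (EXLA and EXLB), which share the domain structure but for which wall-loosening activity is less well established. The genes described here were chosen by their mean signal over the 4 arrays, at least 10. They came from the alpha-expansins and the expansin-like gene EXLB1. Only genes for which the platform table names a probe set of their own, a set of short probes that reads 1 gene, were considered. Of 11 such probe sets (10 alpha-expansins and EXLB1) 7 met that level, out of 22810 probe sets on the array. They are EXPA4, EXPA8 and EXPA15 on chromosome 2, EXPA16 on chromosome 3, EXPA20 and EXLB1 on chromosome 4 and EXPA9 on chromosome 5.

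The study measured gene expression with the Affymetrix ATH1 array in Arabidopsis thaliana. The question was which transcripts SMG7b acts on, a protein of the nonsense-mediated decay pathway that removes mRNAs carrying an early stop codon. Wild-type plants of the Columbia-0 (Col-0) accession were compared with the line SALK_050115, which carries a T-DNA insertion in the Col-0 background and is named smg7b-1 in the titles. There were 2 arrays of each genotype, each hybridised with RNA from 1 sample of whole plants, taken 17 days after germination under continuous light at 22 °C and 65% humidity. Only 1 insertion line was measured and none with the gene restored, so the insertion and any other change in that line cannot be told apart. Nothing in the labels tells whether the 2 samples of a genotype are separate plantings, and the spread behind each p-value may be technical.

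The arrays had been scaled to the same 2% trimmed mean signal, 100.01, and 72.0% to 75.5% of the plant probe sets lay above an array's background, taken as its brightest Bacillus control probe set (6.42 to 9.21 signal units). The targeted gene, SMG7L (AT1G28260), had signals of 49.7 and 46.8 on the wild-type arrays and of 16.7 and 14.4 on the smg7b arrays. The Actin control probe sets differed with genotype. Their ratio of 3′ to 5′ signal, which grows as RNA or labelling becomes less complete, was 17.5 and 41.7 in wild-type replicates 1 and 2 and 106 and 57.3 in smg7b replicates 1 and 2. Wild-type replicate 1 stood apart in having the lowest ratio and the lowest signal of a spiked bacteriophage control (1416, against 3954 to 5724 on the other 3 arrays). The GAPDH controls moved the same way, with wild-type ratios of 1.45 and 2.53 and mutant ratios of 8.34 and 3.84. Both ratios separated the genotypes. With 4 arrays RNA completeness and genotype therefore cannot be told apart, also in the fits below that take the Actin ratio as a covariate. As a check of the labelled tissue, the root enzyme gene PYK10 had wild-type signals of 327 and 363 and mutant signals of 402 and 513. The other root marker with a named probe set, XTH18, was too dim to be tested. Its wild-type signals were 14.3 and 2.59 and its mutant signals 8.48 and 0.552, with the genotypes overlapping. Of 2 genes of green tissue chosen after their values were seen, PRK of the Calvin cycle had wild-type signals of 3172 and 3454 and mutant signals of 1823 and 2225, and the photosystem gene PSAE-1 had 3834 and 6834 against 6533 and 5623. On the log2 scale PYK10 gave 0.40, PRK -0.72 and PSAE-1 0.24, and none of these passed (adjusted p = 0.193, 0.068 and 0.664 in limma). The part of tissue makeup in the expansin differences was not tested. In whole plants, fewer cells of a type and less RNA per cell cannot be told apart.

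EXPA8 and EXLB1 had less transcript in smg7b, and the other tested members did not pass the threshold. The mean signal over all arrays chose the members, and the fall of EXLB1 was already known when they were chosen. Its values, and counts of members that include it, are therefore a description. Differences are log2 values, smg7b minus wild type, fitted with limma over 13648 probe sets, and a probe set passed when its Benjamini-Hochberg adjusted p was under 0.05. Of the 6 members bright enough for the fit, 2 passed as lower and 0 as higher in limma (0 higher also at an unadjusted p of 0.05). Over all tested probe sets 20.3% passed, 9.00% as lower and 11.3% as higher. With 2 arrays against 2, an exact permutation test of 1 probe set cannot go below p = 0.333, so each call rests on the spread pooled across probe sets.

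EXPA8 (AT2G40610), an alpha-expansin, gave 666 and 688 on the wild-type arrays and 218 and 236 on the mutant arrays. Both mutant arrays lay far below both wild-type arrays, and the 2 arrays of a genotype differed by a factor of 1.03 in wild type and 1.08 in smg7b. The signal was 2.99-fold lower in the mutant, a log2 difference of -1.58 (SE 0.19, n = 2 per genotype, 95% interval -1.99 to -1.17), with an adjusted p of 0.000121 in limma. Only 0.645% of the tested probe sets had a lower difference. The EXPA8 difference was -1.55 once the Actin 3′/5′ ratio entered the fit as a covariate. With each array left out in turn it stayed between -1.64 and -1.52.

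EXLB1 (AT4G17030), the expansin-like gene, had wild-type signals of 83.1 and 111 and mutant signals of 22.8 and 21.5. The mutant arrays were close to each other, the wild-type arrays differed by a factor of 1.34, and the genotypes did not overlap. The wild-type signal was 4.34-fold that of smg7b, a log2 difference of -2.12 (SE 0.26, 95% interval -2.69 to -1.55), and 0.132% of the tested probe sets had a lower one. All 4 signals were above background. Its difference was -1.25 with a pseudocount of 32, which lessens the change of dim genes. It was -2.51 after adjustment for the Actin ratio and -2.33 to -1.91 with single arrays left out.

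**Figure D1:**
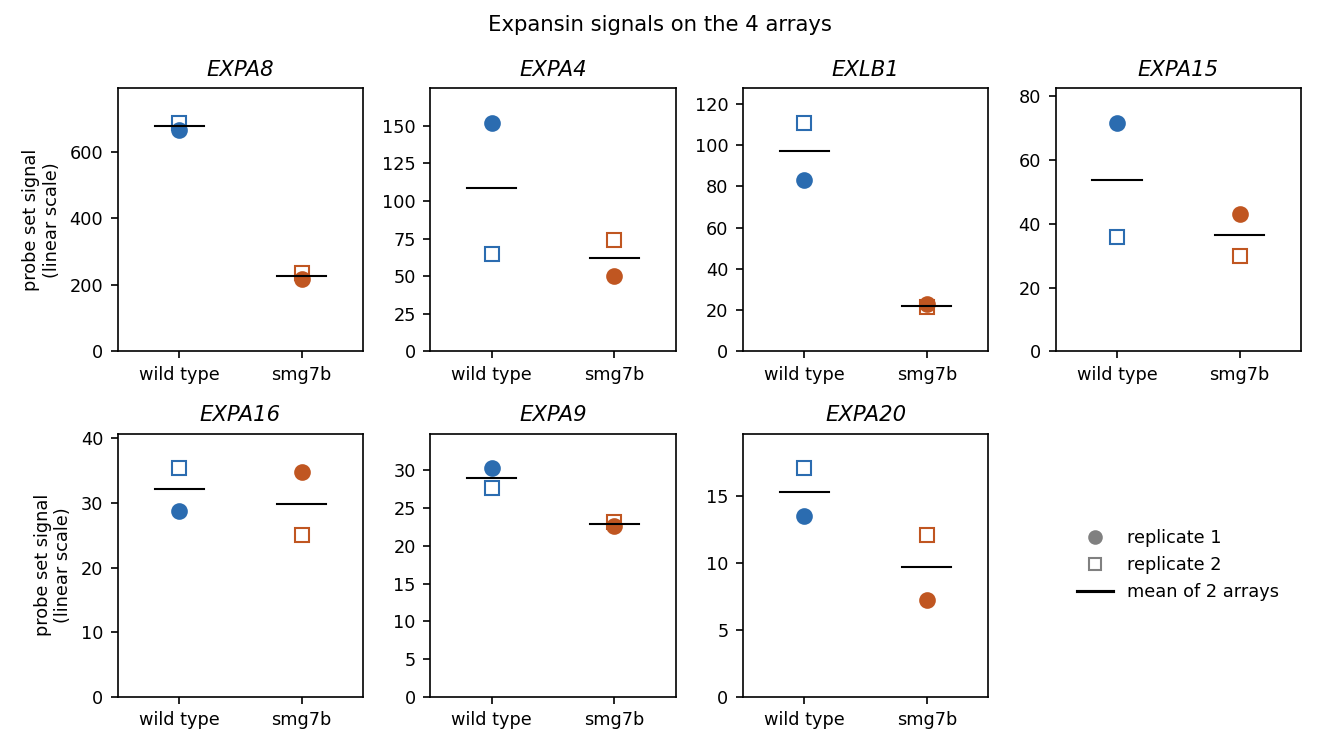
Signal of each of the 7 expansin probe sets (y axes, linear, each starting at 0 with its own scale) in wild type and smg7b; filled circles are replicate 1, open squares replicate 2 and bars the mean of the 2 arrays. EXPA8 and EXLB1 show clearly separate groups, with the 2 wild-type arrays of EXLB1 at 83.1 and 111. Wild-type replicate 1 lies apart from replicate 2 for EXPA4 (152 against 64.6) and EXPA15 (71.7 against 35.9).

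EXPA4 and EXPA15, a pair of alpha-expansin genes on chromosome 2, gave no settled difference, and their wild-type arrays lay far apart. EXPA4 (AT2G39700) had signals of 152 and 64.6 on the wild-type arrays and of 50.2 and 74.1 on the smg7b arrays. The genotypes overlapped, since wild-type replicate 2 lay between the mutant arrays. The log2 difference was -0.70 (SE 0.35, 95% interval -1.47 to 0.07, adjusted p = 0.189).

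EXPA15 (AT2G03090) had the same layout, with wild-type signals of 71.7 and 35.9 and mutant signals of 43.1 and 29.9. Here too wild-type replicate 1 was the highest of the 4 arrays and replicate 2 lay between the mutant arrays. Its difference was -0.50 (SE 0.34, 95% interval -1.25 to 0.25, adjusted p = 0.337). Both values depended on which wild-type array was kept, and 2 arrays cannot show which of them is atypical. Without wild-type replicate 1 the differences were -0.08 for EXPA4 and 0.00 for EXPA15. Without wild-type replicate 2 they were -1.31 and -1.0, past the threshold (adjusted p = 7.37e-06 and 0.00677). That fit, like those without wild-type replicate 1 or with the Actin ratio, took each spread from the intensity trend alone, so its p-values are too small. With the Actin ratio as a covariate EXPA4 turned to 0.62 (adjusted p = 0.38) and EXPA15 to 0.00.

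EXPA9 and EXPA16 gave smaller differences. EXPA9 (AT5G02260) gave 30.3 and 27.7 on the wild-type arrays and 22.6 and 23.1 on the mutant arrays. Its genotypes did not overlap, but the difference was -0.34 (SE 0.30, 95% interval -1.01 to 0.32) and did not pass (adjusted p = 0.465). EXPA16 (AT3G55500) had wild-type signals of 28.8 and 35.4 and mutant signals of 34.7 and 25.0, with the genotypes interleaved. Its difference was -0.12 (SE 0.31, 95% interval -0.79 to 0.55, adjusted p = 0.827). Changes within these intervals were not resolved by 2 arrays a genotype.

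EXPA20 (AT4G38210) was the dimmest member and too dim for the fit. It had signals of 13.5 and 17.1 on the wild-type arrays and of 7.24 and 12.1 on the smg7b arrays, with smg7b replicate 1 under the background of its array (9.21). The mutant mean of 9.66 was under the level of 10 that chose the members, so it was included through wild type. Its log2 difference of -0.70 had an SE of 0.54 and an adjusted p of 0.412 when the fit was run on all probe sets with a mean signal of 10 or more. The difference was -0.33 without smg7b replicate 1, the array under its background, -1.07 without smg7b replicate 2 and -0.18 with a pseudocount of 32.

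Among the 6 tested members the median difference was -0.60, against -0.01 over all tested probe sets. All 6 differences were below 0, as were 51.1% over all tested probe sets. Of the 7 members, 4 had both mutant arrays below both wild-type arrays (EXPA8, EXLB1, EXPA9 and EXPA20), which held for 30.5% of the 15817 probe sets with a mean signal of at least 10. EXLB1, whose fall was known when the members were chosen, is in the median and in each of these counts. EXPA20 reached the list only through wild type. The median and the counts are therefore a description. The median depended on the wild-type arrays, being -1.16 without replicate 2 and -0.27 without replicate 1 of wild type.

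**Figure D2:**
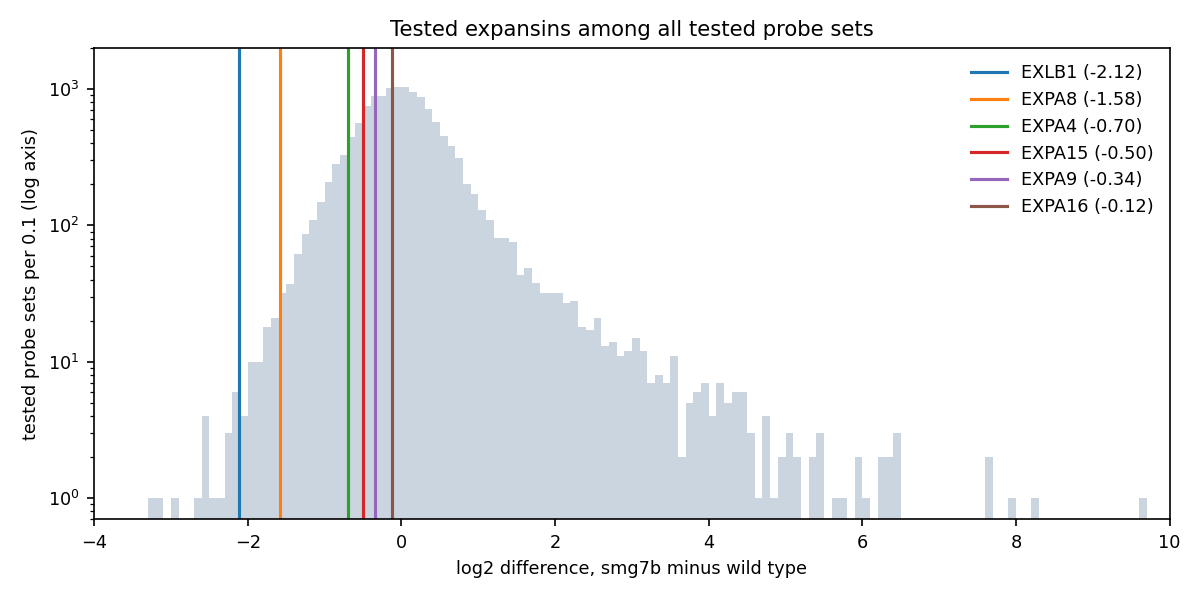
Distribution of log2 differences, smg7b minus wild type, over the 13648 tested probe sets (grey bars, counts on a log axis), with a vertical line for each of the 6 tested expansins. EXLB1 at -2.12 and EXPA8 at -1.58 lie in the lower tail, and the other lines, from -0.70 to -0.12, fall within the bulk.

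**Figure D3:**
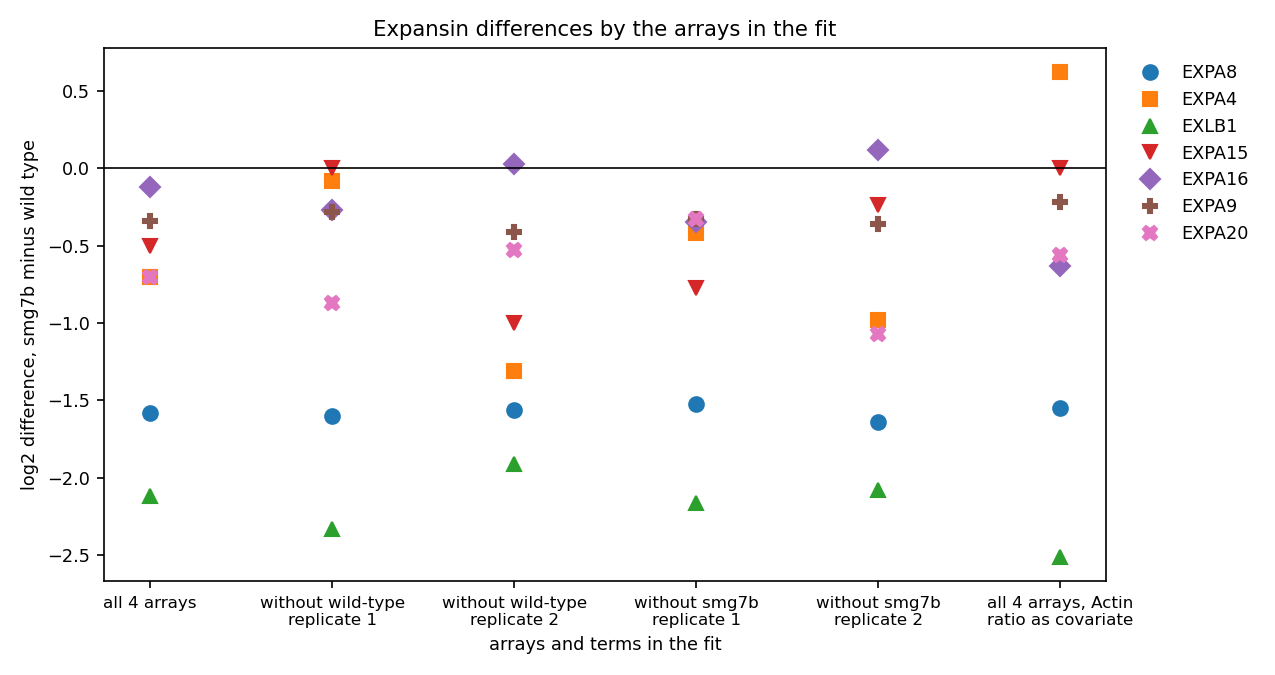
Log2 difference, smg7b minus wild type, of each of the 7 expansins (symbols) with all 4 arrays, with each array left out, and after adjusting for the 3′/5′ ratio of Actin. EXPA8 and EXLB1 keep values at or below -1.52, while EXPA4 ranges from -1.31 to 0.62.

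The 4 alpha-expansin probe sets below the level were near background. Just outside it was EXPA7 (mean 6.76, against 12.5 for EXPA20 just inside), a gene of growing root hairs, which gave 19.0 and 2.43 on the wild-type arrays and 1.14 and 4.46 on the mutant arrays. Only wild-type replicate 1 lay above its background. EXPA18, another root hair expansin, had wild-type signals of 5.04 and 7.90 and mutant signals of 0.85 and 3.49, with 1 array above background. EXPA21 and EXPA24, which lie near each other on chromosome 5, were below background on all 4 arrays, and no fold is given for any of these genes. A further 4 alpha-expansins shared a probe set with another gene (EXPA22 with EXP26, EXPA23 with EXPA25), and these read at most 4.92. No probe set was found by name in the platform table for the remaining 12 of the 26 alpha-expansin genes in the RefSeq table. These, among them EXPA1, EXPA5 and EXPA10, were not analysed here, and whether unnamed probe sets measure them was not checked.

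Among the 4 tested related expansins, the beta-expansin genes EXPB1 and EXPB3 passed as lower, against 9.00% over all tested probe sets, and the 2 EXLA genes did not pass. EXPB3 (AT4G28250) had signals of 113 and 48.0 on the wild-type arrays and of 24.6 and 27.1 on the smg7b arrays, and fell by 1.51 on the log2 scale (SE 0.36, adjusted p = 0.0122). EXPB1 (AT2G20750) gave 51.1 and 32.8 on the wild-type arrays and 15.0 and 18.6 on the mutant arrays, and fell by 1.29 (SE 0.33, adjusted p = 0.0184). Its mean log2 was 5.36 in wild type and 4.06 in smg7b, under the filter of 4.32, so EXPB1 was tested only through wild type and its call is a description. In both, wild-type replicate 1 was the highest of the 4 arrays, as it was for EXPA4 and EXPA15. Without that array EXPB3 gave -0.89 (adjusted p = 0.0602) and EXPB1 -0.97 (adjusted p = 0.107). Neither passed without smg7b replicate 1, where fewer probe sets passed over the whole array and the differences were still -1.44 and -1.14. After adjustment for the Actin ratio neither passed, and the differences were -0.43 and -0.59. With a pseudocount of 32 they were -0.90 and -0.59. EXPB1 also missed the threshold with no filter on dim probe sets (adjusted p = 0.0698). EXLA1 gave -0.08 (SE 0.22, 95% interval -0.55 to 0.39) and EXLA2 -0.61 (SE 0.31, adjusted p = 0.187). EXPB2, EXPB5, EXLA3 and the EXLB2 gene AT4G30380 were too dim to be tested.

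**Figure D4:**
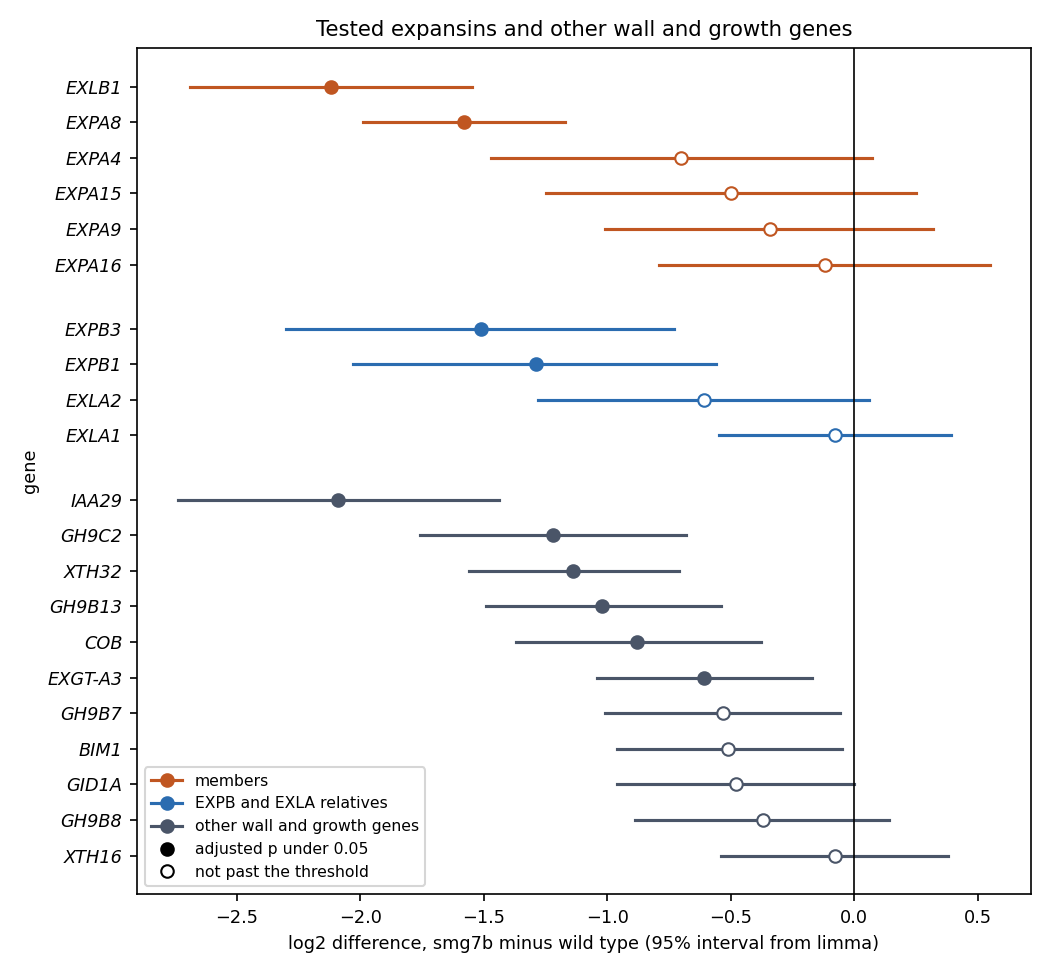
Log2 difference, smg7b minus wild type, with its 95% interval from limma for the 6 tested expansins, 4 tested EXPB and EXLA relatives and 11 other tested wall and growth genes (filled symbols, adjusted p under 0.05). Each of these genes lies below 0, from -2.12 for EXLB1 to -0.08 for EXLA1 and XTH16. Genes too dim for the fit, such as GID1B with a log2 difference of 1.75, are not shown.

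Other genes of wall loosening and cell enlargement were compared with the expansins through lists by name. The lists were written with earlier results of these data known, so their counts are a description. A probe set of its own was named for 31 such genes, 11 of them were tested, 6 passed as lower and 0 as higher in limma (0 higher and 9 lower at an unadjusted p of 0.05), with a median of -0.61. Over all tested probe sets 9.00% passed as lower, and 16.4% were lower at an unadjusted p of 0.05. IAA29, 1 of the 6, was tested only through wild type, as described next. Fewer of the tested wall and growth genes passed as lower with either smg7b array left out, as was so over all tested probe sets. XTH enzymes cut and rejoin the xyloglucan that tethers cellulose. XTH32 had wild-type signals of 291 and 272 and mutant signals of 118 and 139 and fell by 1.14 (SE 0.19, adjusted p = 0.0017), and EXGT-A3 of the same family fell by 0.61 (SE 0.20, adjusted p = 0.0496), while XTH16 gave -0.08. Of 4 tested GH9 endoglucanases, which cleave glucan chains, GH9C2 fell by 1.22 (SE 0.25, adjusted p = 0.00512) and GH9B13 by 1.02 (SE 0.22, adjusted p = 0.00687). COB, a membrane-anchored protein that guides the orientation of cellulose, fell by 0.88 (SE 0.23, adjusted p = 0.0182).

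IAA29, a repressor of auxin response that is raised in shade, had signals of 55.1 and 73.2 on the wild-type arrays and of 14.3 and 15.6 on the smg7b arrays, a difference of -2.09 (SE 0.30) that was known when the lists were made (-1.03 with a pseudocount of 32). Its mean log2 in smg7b, 3.90, was under the filter, so its call is a description. The brassinosteroid signalling gene BIM1 and the gibberellin receptor gene GID1A gave -0.51 (SE 0.21) and -0.48 (SE 0.22) and did not pass. The related receptor gene GID1B, just too dim for the fit and so outside these counts, gave 1.75. The calls of COB, GH9C2 and GH9B13 were each lost without smg7b replicate 1, a fit in which fewer probe sets passed over the whole array. Their differences there, -0.79, -1.07 and -1.04, were close to those with all arrays. COB gave -0.58 without wild-type replicate 1. The calls of COB and GH9C2 were also lost after adjusting for the Actin ratio (-0.30 and -0.46). Those of COB and GH9B13 were lost without smg7b replicate 2 as well (-0.96 and -0.99). EXGT-A3 lost its call under 10 of 17 alternatives. XTH32 passed under each of the 17 alternatives, some of which give p-values that are too small, as described for EXPA15. With the Actin ratio, 1 of those fits, its difference was -0.92 and close to the threshold (adjusted p = 0.0493 in limma). The part of RNA completeness in the falls of the expansins and of these other genes was not tested, since that covariate cannot tell it from genotype. No gene of the cellulose synthase, proton pump, aquaporin or arabinogalactan lists was matched by name to a probe set of its own in the platform table.

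The genes next to the members on the chromosome were compared last. They were the 14 nearest genes with a named probe set of their own, 1 on each side of each member, and genes without one were passed over. Of the 14, 10 were tested, 0 passed as lower (2 at an unadjusted p of 0.05) and 3 as higher in limma. The shares over all tested probe sets were 9.00% lower, 16.4% lower at the unadjusted level and 11.3% higher. Next to EXPA8, AT2G40600 gave 0.66 on the log2 scale and AT2G40620, too dim to be tested, -0.80. Next to EXLB1 the neighbours before and after it gave -0.69 and -0.56.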

How the data were processed

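Expression was measured in 4 whole-plant samples, 2 of each genotype, with groups and replicate numbers taken from the titles. The deposited values are 1 intensity (signal) per probe set and array on a linear scale. MAS5 and GCOS are named in the submitters' processing notes, with versions not given in the sources used here. Deposited signals were log2-transformed without a pseudocount. After removal of 64 control probe sets 22746 remained, and the 13648 whose mean log2 reached the 40th percentile (4.32) were tested with limma 3.58.1 in R 4.3.3 (lmFit, eBayes with an intensity trend, genotype as the only term), with Benjamini-Hochberg adjustment and a threshold of 0.05. Intervals are 95% intervals of that fit. Precision is limited by the number of arrays. The fit was tested on simulated data.

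Genes were named from the platform table, which gives 13513 probe sets 1 gene, of which 13436 matched the RefSeq table of TAIR10.1 by gene identifier. Coordinates are left out because no build is named in the labels. The members and lists were chosen with earlier results of these data known. Each expansin measured was named; of each other list, called genes were named, at most 3 highest and 3 lowest, beside genes said to be chosen later. For genes of these lists with more than 1 probe set the brightest was used. Of the marker lists, the root list had 1 tested gene (PYK10, 0.40 on the log2 scale, adjusted p = 0.193 in limma). The root hair, flower and leaf lists had 0 genes with a probe set of their own named in the platform table. Alternatives were other normalizations, filters, moderation, a pseudocount of 32, values raised to background, a replicate block, the Actin ratio as covariate and each array left out.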

Additional observations from a re-analysis of the deposited data

How the results depend on the processing

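EXPA8 passed the threshold as lower under all 17 alternatives and EXLB1 under all 16 in which it was tested. The fits without a wild-type array and with the Actin ratio are among these, and their p-values are too small. The number of members called lower was 2, and 1 at the 60th percentile filter, which drops EXLB1 with other dim probe sets. With single arrays left out it was 2 to 4 (4 without wild-type replicate 2, with EXPA4 and EXPA15), and 0 were called higher in any of these fits. The median over the members ran from -1.16 to -0.27 with single arrays left out. EXPA4 turned to 0.62 with the Actin ratio as a covariate. EXPA16 ran from -0.35 to 0.12 and EXLA1 from -0.32 to 0.15 with single arrays left out. Of the other wall and growth genes 1 was called higher, GID1B, with no filter or with a filter on a mean signal of 10, and 2 to 7 were called lower with single arrays left out. Over all probe sets, 869 were called higher and 378 lower with the Actin ratio as a covariate, 1885 lower with the crossed replicate block (3 members among them), and 720 to 2291 higher and 260 to 2034 lower with single arrays left out. Rises made up 55.7% of the calls with the deposited scaling but 42.2% after median centring, which moved the median of all tested probe sets to -0.13. With the replicate number as a block (replicate block) 1402 were called higher and 1086 lower, with 2 members lower as before. EXGT-A3 lost its call in that block (adjusted p = 0.076). The deviations of same-numbered arrays had a weak negative correlation (r = -0.146 across probe sets, which are not independent). The crossed pairing was added after seeing the data and comes from no label. The cause of these shifts was not tested.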

Other observations

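GID1B, a gibberellin receptor gene singled out after its values were seen, was just too dim for the fit. It gave 11.5 and 10.1 on the wild-type arrays and 37.5 and 35.2 on the mutant arrays, above background on each array. With a filter on a mean signal of 10 in its place, it rose by 1.75 on the log2 scale (SE 0.36, adjusted p = 0.00723 in limma), and with no filter the adjusted p was 0.0303. The related receptor gene GID1C, also too dim, had wild-type signals of 9.49 and 22.2 and mutant signals of 23.7 and 9.86, with the genotypes interleaved. XTH33, a xyloglucan enzyme gene likewise singled out, had signals of 13.1 and 22.0 on the wild-type arrays and of 4.16 and 6.20 on the smg7b arrays. Both mutant signals lay under background.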
